A study of Sus scrofa with 6 samples.

Results

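The genes described here are the kinases, mediators and targets of the DNA damage checkpoint and of p53, namely ATM, ATR, CHEK1, CHEK2, BRCA1, MDM2, CDKN1A and GADD45A. They were chosen by name. Of the 8 genes, 7 were found by name among the 17678 genes of the deposited table, and CHEK1 was found through its Ensembl identifier, whose name field was blank there. All 8 passed the filter on low values, which asked for an average of 10 or more across libraries, and so were among the 11986 genes tested.

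DNA breaks are sensed mainly by ATM and stalled replication forks by ATR, a pair of protein kinases that phosphorylate the effector kinases CHEK2 and CHEK1, and these in turn hold back the entry into mitosis. Both branches also stabilise p53, a transcription factor whose targets include the cell cycle inhibitor CDKN1A, the stress protein GADD45A and its own ubiquitin ligase MDM2. The kinases act by phosphorylation, so their mRNA does not measure their activity, whereas the mRNA of p53 targets is a readout of the response in cells that transcribe. Pig embryos are held to transcribe little until after the 2-cell stage, when their own genome becomes active, so the mRNA measured here is thought to be largely maternal, and a response that needs new transcription could go unseen in it.

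Messenger RNA was sequenced from porcine embryos at the 2-cell stage, 32 h after parthenogenetic activation of oocytes, before the groups differed in appearance. The checkpoint and p53 genes are compared here to ask whether SIN3A-depleted embryos, whose developmental failure the study examined, showed a checkpoint response in mRNA. Mature (MII) oocytes were injected before activation with a negative control siRNA (NC) or with siRNA against SIN3A (KD), a corepressor scaffold that binds histone deacetylases. Each group had 3 replicates, each a pool of 20 embryos, and the embryos carried maternal genomes only. Values are abundances per gene normalized by the authors for the depth of each library, and NC libraries held an estimated 7800000 to 12900000 reads, KD libraries 10200000 to 15800000. Pooled values cannot tell fewer cells with a transcript from less of it per cell. The study calls its replicates independent without saying what was separate, such as the batch of oocytes, and p-values measure only the spread between these pools.

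The siRNA target itself was measured first. SIN3A (ENSSSCG00000001880) was at 37361, 33964 and 32404 in the NC libraries and at 3271, 1079 and 4173 in the KD libraries. Every library matched its label, and 8.22% of the NC mean was left in KD, a log2 fold change of -3.81 (SE 0.31, n = 3 per group; adjusted p = 8.45e-06, limma). This call depended on the model of the variance: the adjusted p was 0.423 when the variance was not allowed to follow the expression level and 0.469 with the robust step.

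None of the 8 checkpoint and p53 genes passed the test between KD and NC. At an adjusted p below 0.05 in limma 0 of 8 were called, against 0.159% of all genes (19 genes, 7 higher and 12 lower in KD). At an unadjusted p below 0.05 the count was also 0 of 8, against 4.61% of all genes, and it was 1 of 8, ATM, without NC replicate 1, against 4.81% of all genes in that fit. The KD and NC values did not separate completely for any of the 8, against 9.79% of all genes. The adjusted p was 0.997 for each gene. The background count itself moved, from 19 genes to 0 without the variance trend, to 12 without NC replicate 2 or 3 and to 11 without KD replicate 1 or 2, and none of the 8 was called in any of these fits.

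The 95% confidence intervals give the sizes of change that these libraries leave room for. In all 8 genes the interval lay within a 2-fold change in either direction, with the lowest bound at 0.562-fold, in CHEK2, and the highest at 1.87-fold, in MDM2. For MDM2 and CHEK2 this limit depended on the fit: the upper bound of MDM2 was 2.19-fold without the variance trend, 2.38-fold without NC replicate 2 and also above 2-fold without NC replicate 1, KD replicate 1 or KD replicate 2, and the lower bound of CHEK2 was 0.499-fold without NC replicate 3. The intervals of the other 6 genes lay within it in every fit that tested them. Over all genes tested, 80.1% had an interval within a 2-fold change. The log2 fold change was positive for 5 of the 8 genes and negative for 3, with a median of 0.06 against 0.00 over all genes (0.003 before rounding). The median size of the change, without its sign, was 0.15 on the log2 scale, against 0.12 over all genes.

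**Figure D1:**
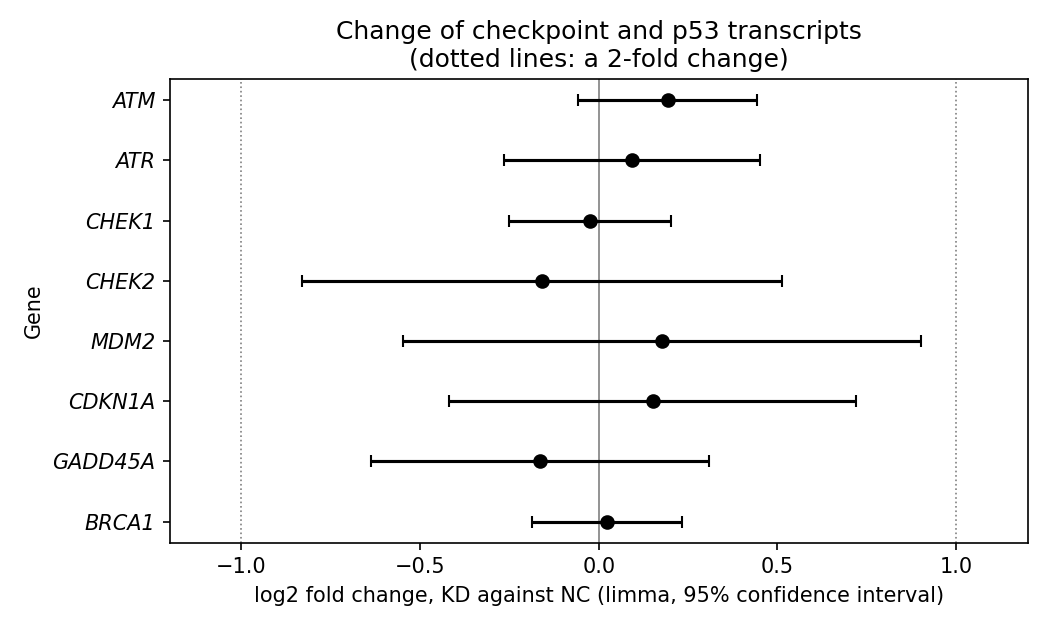
Log2 fold change of the 8 checkpoint and p53 genes in KD against NC embryos, with points for the limma estimate and bars for the 95% confidence interval (n = 3 per group). Every interval includes 0 and, in this fit of all 6 libraries, lies within the dotted lines that mark a 2-fold change.

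ATM, the kinase that responds to double-strand breaks, was at 968, 755 and 743 in the NC libraries and at 891, 1009 and 904 in the KD libraries. The NC library of replicate 1 lay inside the range of the KD libraries, while the other 2 NC libraries lay under all of them. The means were 822 ± 127 in NC and 935 ± 64.7 in KD (SD, n = 3). KD exceeded NC by 0.19 on the log2 scale (95% confidence interval -0.06 to 0.44), and an exact two-sided permutation test gave p = 0.3, where 0.1 is the smallest p that 3 against 3 allow. Without NC replicate 1 the log2 fold change was 0.32, and ATM then passed an unadjusted threshold of 0.05 in limma but had an adjusted p of 0.859. ATM (ENSSSCG00000025606) spans bases 36620656 to 36759555 of chromosome 9 (Sscrofa11.1, plus strand), and its longest RefSeq mRNA has 64 exons.

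ATR, the kinase that responds to stalled forks, was at 251, 223 and 162 in NC and at 217, 215 and 236 in KD. The KD libraries lay close together and inside the wider NC range. The means were 212 ± 45.4 and 223 ± 11.8 (SD, n = 3), with a log2 fold change of 0.09 (95% confidence interval -0.27 to 0.45; exact permutation p = 0.9). Its sign turned without NC replicate 3, the lowest library, to -0.09. ATR (ENSSSCG00000011679) lies on the minus strand of chromosome 13 from 83175515 to 83289986.

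CHEK1, the effector kinase downstream of ATR, was among the abundant genes, at 1513, 1269 and 1181 in NC and at 1366, 1219 and 1294 in KD. All 3 KD values fell inside the NC range. The means were 1321 ± 172 and 1293 ± 73.4 (SD, n = 3), and the log2 fold change was -0.03 (95% confidence interval -0.25 to 0.20; exact permutation p = 0.9). It was 0.08 without NC replicate 1 and 0.02 without KD replicate 2. CHEK1 (ENSSSCG00000015215) spans bases 52759224 to 52790878 of chromosome 9 (plus strand).

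CHEK2, the effector kinase downstream of ATM, was far lower, at 31.2, 33.8 and 28.2 in NC and at 23.7, 28.6 and 31.2 in KD. The KD library of replicate 1 was the lowest of the 6, and the other 2 KD libraries lay inside the NC range. These values rest on an estimated 23 to 40 reads per library. This gave a log2 fold change of -0.16 (95% confidence interval -0.83 to 0.51; exact permutation p = 0.5), from means of 31.1 ± 2.84 and 27.8 ± 3.82 (SD, n = 3). It was -0.05 without KD replicate 1 and -0.24 without KD replicate 3. CHEK2 (ENSSSCG00000034864) lies on the minus strand of chromosome 14 from 45699833 to 45967350, a span in which 470 of its 8449 annotated exon bases are shared with TTC28 on the same strand. Reads from the shared bases could have been assigned to either gene, and TTC28 was at 131 to 197.

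BRCA1, a mediator that works at breaks and in homologous recombination, had the highest values of the 8 genes, at 1842, 1536 and 1532 in NC and at 1585, 1683 and 1705 in KD. The KD libraries lay inside the NC range, whose upper end was set by replicate 1. The means were 1637 ± 178 and 1657 ± 64.0 (SD, n = 3), and the log2 fold change was 0.02 (95% confidence interval -0.19 to 0.23; exact permutation p = 0.8). It was -0.02 without NC replicate 2 and -0.02 without NC replicate 3. BRCA1 (ENSSSCG00000022101) spans bases 19788087 to 19854515 of chromosome 12 (plus strand) and shares 928 of its 9091 exon bases with NBR1 on the opposite strand. NBR1 was at 1266 to 1408, and the library kit named in the labels is not described there as keeping strand, so reads from the shared bases could belong to either gene.

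MDM2, the ubiquitin ligase that degrades p53 and is itself a p53 target, was at 42.3, 69.2 and 29.3 in NC and at 35.8, 45.5 and 76.6 in KD. It varied more between replicates than any of the other 7 genes, with a high and a low library in each group. Its SD within groups was 0.58 on the log2 scale, above that of 91.9% of the 1456 genes of like level, whose median was 0.33. Between the groups the log2 fold change was 0.18 (95% confidence interval -0.55 to 0.90; exact permutation p = 0.7), from means of 46.9 ± 20.3 and 52.7 ± 21.3 (SD, n = 3). Leaving out the lowest NC library, replicate 3, gave -0.11, and leaving out the highest KD library, replicate 3, gave -0.13. MDM2 (ENSSSCG00000000488) lies on the plus strand of chromosome 5 from 33105717 to 33137602.

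CDKN1A, which encodes the cyclin-dependent kinase inhibitor p21, was at 36.5, 54.2 and 47.2 in NC and at 46.3, 46.6 and 59.6 in KD. The highest value was in KD replicate 3 and the lowest in NC replicate 1, while the other 4 libraries lay between 46.3 and 54.2. The means were 46.0 ± 8.95 and 50.8 ± 7.60 (SD, n = 3), with a log2 fold change of 0.15 (95% confidence interval -0.42 to 0.72; exact permutation p = 0.6). Without NC replicate 1 the log2 fold change was -0.003. The interval for the fold change ran from 0.748 to 1.65, and the values rest on an estimated 35 to 65 reads per library. CDKN1A (ENSSSCG00000001565) lies on the plus strand of chromosome 7 from 32354776 to 32363771.

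GADD45A, a stress protein induced by p53 and by other factors, was at 71.0, 78.7 and 103 in NC and at 63.6, 79.3 and 80.5 in KD. The highest library was an NC one, replicate 3, and the lowest a KD one, replicate 1, with the other 4 between them. Its log2 fold change was -0.16 (95% confidence interval -0.64 to 0.31; exact permutation p = 0.6), from means of 84.1 ± 16.5 and 74.4 ± 9.43 (SD, n = 3). Without the extreme libraries it was nearer 0, at -0.01 without NC replicate 3 and -0.06 without KD replicate 1. It was -0.28 without NC replicate 1. GADD45A (ENSSSCG00000037066) lies on the minus strand of chromosome 6 from 144940702 to 144944089.

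Levels were compared between the genes per kilobase of the longest RefSeq mRNA, as means over the 6 libraries. On this scale CHEK1 was highest, at 515 ± 47.1 (SD, n = 6) per kb, followed by BRCA1 at 206 ± 15.0 per kb. Their ranges did not overlap each other or those of the remaining genes. ATM, at 66.9 ± 8.31 per kb, and GADD45A, at 54.8 ± 9.07 per kb, came next and overlapped. A lower group followed with ATR at 25.7 ± 3.57 per kb, CDKN1A at 22.7 ± 3.70 per kb, MDM2 at 12.3 ± 4.67 per kb and CHEK2 at 10.04 ± 1.19 per kb, in which each gene overlapped the next. The order depends in part on the transcript assumed: with the shortest mRNA, MDM2 was at 26.5 per kb and BRCA1 at 356 per kb.

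**Figure D2:**
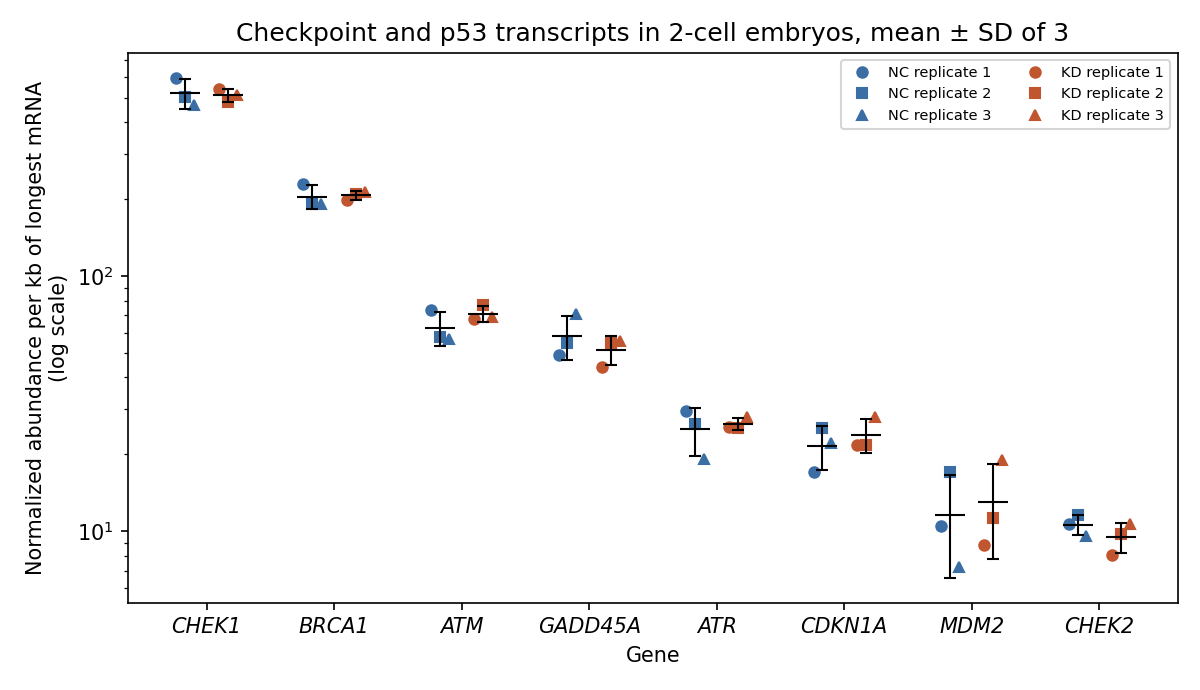
Normalized abundance per kilobase of the longest mRNA (log scale) of the 8 genes in each library, with NC in blue and KD in orange, one symbol per replicate, and black bars for the mean ± SD of 3. CHEK1 and BRCA1 sit above the others, and the NC and KD symbols overlap for every gene.

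The libraries differed from each other in ways that the groups did not follow. NC replicate 3 held the lowest value of the 6 for 5 of the 8 genes, and it was lowest for 14.9% of all tested genes. NC replicate 1 held the highest value for 3 genes, ATR, CHEK1 and BRCA1, and it was highest for 22.0% of all genes. KD replicate 3 was above the mean of the 6 libraries for 7 of the 8. The median log2 fold change of the 8 genes was -0.06 without NC replicate 3 (-0.055 before rounding) and -0.01 without KD replicate 3.

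For each of the 8 genes the tested gene with the most similar profile over the 6 libraries was sought by Pearson correlation of log2 values. It was ENSSSCG00000028674 for ATM (r = 0.983), POMP for ATR (r = 0.997), NBEA for CHEK1 (r = 0.988) and ABHD5 for CHEK2 (r = 0.985). It was C5 for MDM2 (r = 0.996), ABCD4 for CDKN1A (r = 0.982), TBC1D9 for GADD45A (r = 0.991) and ASPM for BRCA1 (r = 0.995). With 6 libraries and 11985 genes compared, such values are common: between 12 and 57 genes passed an r of 0.95 for each of the 8. None of the 8 was the closest gene of another.

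The wider pathway was followed in 7 lists that together named 85 other genes, of which 79 were found and 68 tested. A single gene of the 68 was called, CCNB1, lower in KD, against 0.159% of all genes. The study had already reported CCNB1 as reduced. The groups did not overlap in 6 of the 68 genes, against 9.79% of all genes. In limma 7 had an unadjusted p below 0.05, against 4.61%. Without CCNB1, 0 of 67 genes were called, 5 did not overlap and 6 had an unadjusted p below 0.05. Over all genes 6064 log2 fold changes were positive and 5922 negative. Of the 68 genes 26 were positive and 41 negative (40 without CCNB1), and RNF8 rounded to 0.0. The median of the 68 was -0.03. This median turned to 0.005 without NC replicate 1 and was -0.08 without NC replicate 3 (-0.075 before rounding).

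Of the 16 sensors and loaders, which bind damaged or single-stranded DNA and recruit the kinases, 16 were tested and none was called. CLSPN, the adaptor that presents CHEK1 to ATR, and TOPBP1, the activator of ATR, had the highest means, 2422 ± 172 and 2395 ± 141 in NC and 2443 ± 72.1 and 2307 ± 155 in KD (SD, n = 3). ATRIP, the partner of ATR, was at 127, 111 and 108 in NC and at 96.3, 83.4 and 82.2 in KD. Its groups did not overlap, and its log2 fold change was -0.40 (95% confidence interval -0.81 to 0.00, with the upper bound at 0.004; adjusted p = 0.997). RPA2, a subunit of the complex that coats single-stranded DNA, was at 374, 343 and 357 in NC and at 293, 247 and 325 in KD. Every KD value was under every NC value, with a log2 fold change of -0.32 (95% confidence interval -0.61 to -0.03; adjusted p = 0.997) that was -0.21 without KD replicate 2.

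Among 11 mediators at break sites 9 were found and tested, and none was called. PRKDC and XRCC6, both of the end-joining kinase complex, had the highest means, with log2 fold changes of 0.06 and -0.01. BRCC3, a deubiquitinase of a BRCA1 complex, was at 60.1, 67.4 and 63.3 in NC and at 48.4, 31.2 and 47.6 in KD, without overlap (log2 fold change -0.60, 95% confidence interval -1.16 to -0.04; adjusted p = 0.997). Without KD replicate 2 the log2 fold change of BRCC3 was -0.40. MDC1, which binds phosphorylated histone at breaks, had a log2 fold change of -0.09, which was -0.02 without NC replicate 2 and -0.17 without NC replicate 1. RNF168 and H2AX were not found by name.

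The effectors that lie between the checkpoint kinases and mitosis are the CDC25 phosphatases, the inhibitory kinases WEE1 and PKMYT1, and the mitotic kinase CDK1 with its cyclin CCNB1. Of these 7 genes CCNB1 alone was called. It was at 8891, 9039 and 7729 in NC and at 2113, 974 and 2171 in KD, so that every KD library was far under the NC range and 20.5% of the NC mean was left. The log2 fold change was -2.37 (SE 0.21, n = 3 per group; adjusted p = 1.36e-05, limma), with an adjusted p of 0.439 in the robust fit and 0.423 in the fit that left out the variance trend. CDC25B, which activates CDK1, was at 3308 ± 500 in NC and 3392 ± 504 in KD (SD, n = 3). WEE1 had low values, with means of 10.97 ± 6.89 and 13.5 ± 7.68, and a log2 fold change of 0.40 (95% confidence interval -0.92 to 1.72) that was -0.25 without NC replicate 1. PKMYT1, singled out after its values were seen, was at 273, 283 and 347 in NC and at 368, 413 and 331 in KD. Its groups overlapped at KD replicate 3, and its log2 fold change was 0.30 (95% confidence interval 0.002 to 0.60; adjusted p = 0.997).

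Among the regulators and relatives of p53, 6 genes were tested and none was called. TP73 was under the filter on low values, at 0 in 2 KD libraries and at most 1.70 in any library. TP63, the family member known for guarding oocytes, was singled out after its values were seen. It was at 1502, 1272 and 1262 in NC and at 1291, 1406 and 1294 in KD. Per kilobase of the longest mRNA its level was 261 ± 18.6 (SD, n = 6), and with the shortest mRNA it was 658 per kb. The KD values of TP63 lay inside its NC range, with a log2 fold change of -0.01 (95% confidence interval -0.23 to 0.20) that was 0.07 without NC replicate 1. USP7, a deubiquitinase of MDM2 and p53, had the highest mean of the list, 10185 ± 1037 in NC and 10300 ± 608 in KD (SD, n = 3). PPM1D, a phosphatase that shuts the response off, was at 2189 ± 62.9 and 1938 ± 318. Its log2 fold change was -0.19, or -0.06 without KD replicate 2 and -0.30 without KD replicate 3. KAT5, an acetyltransferase that activates ATM, was at 59.5 ± 4.23 and 55.5 ± 5.78 (log2 fold change -0.10, or -0.03 without KD replicate 2 and -0.17 without KD replicate 1).

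Of 30 other p53 target genes 26 were found and 18 passed the filter, and none of these was called. The 95% confidence interval lay within a 2-fold change for 13 of the 18 and reached beyond it for 5. The log2 fold change was positive for 6 of the 18 and negative for 12, against 6064 and 5922 over all genes. The median of the 18 was -0.06, or 0.005 without NC replicate 1 and -0.11 without KD replicate 3 (-0.105 before rounding). The abundant ones were TP53INP1, at 4276 ± 656 in NC and 4216 ± 197 in KD, and PLK3, at 1709 ± 182 and 1747 ± 187 (SD, n = 3). ZMAT3, an RNA-binding protein induced by p53, was at 56.7, 19.9 and 54.1 in NC and at 76.4, 97.9 and 82.5 in KD. Every KD value was above every NC value, and its log2 fold change of 1.09 (95% confidence interval 0.39 to 1.79) had an adjusted p of 0.632, the lowest in this list. Without NC replicate 2, its lowest library, the log2 fold change was 0.61 (adjusted p = 0.999), and over all alternatives the adjusted p ran from 0.252 to 1.0. BTG2, an antiproliferative p53 target, pointed the other way, at 17.7, 8.77 and 18.9 in NC and at 6.81, 7.90 and 1.10 in KD. Its groups did not overlap either, with a log2 fold change of -1.55 (95% confidence interval -2.96 to -0.13; adjusted p = 0.997) from an estimated 1 to 22 reads per library. This value was -0.88 without KD replicate 3 and -0.72 with a pseudocount of 10, and BTG2 dropped under the filter without NC replicate 1 or 3. RRM2B, a ribonucleotide reductase subunit singled out after its values were seen, had a log2 fold change of -0.24 (95% confidence interval -0.46 to -0.02; adjusted p = 0.997), with overlapping groups. The 8 genes under the filter were BBC3, TP53I3, FAS, TIGAR, PHLDA3, FDXR, GDF15 and SPATA18, and TNFRSF10B, TRIAP1, SFN and EDA2R were not found by name.

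The partners of BRCA1 and of homologous recombination, 9 genes, were all tested and none was called. BRCA2, which loads the recombinase, was at 7846 ± 1378 in NC and 7743 ± 462 in KD, and PALB2, its link to BRCA1, at 3902 ± 150 and 3763 ± 85.9 (SD, n = 3). BARD1, the obligate partner of BRCA1, had a log2 fold change of -0.20 (95% confidence interval -0.45 to 0.05), and RAD51C one of -0.17 (95% confidence interval -0.45 to 0.12). For BARD1 it was -0.10 without NC replicate 2 (-0.095 before rounding) and -0.31 without NC replicate 3. For RAD51C it was -0.02 without KD replicate 2 and -0.28 without KD replicate 1. All 9 intervals lay within a 2-fold change. Over the 7 lists 56 of the 68 tested genes had such an interval and 12 did not, against 80.1% within it over all genes.

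Close relatives of CDKN1A and GADD45A were followed as well. CDKN1C was at 85.5 ± 9.51 in NC and 94.6 ± 29.3 in KD, and CDKN1B at 28.1 ± 4.82 and 18.8 ± 9.87 (SD, n = 3). The log2 fold change was 0.11 for CDKN1C and -0.71 for CDKN1B (95% confidence interval -1.66 to 0.23), in which KD replicate 2, at 7.44, was the low library and without which CDKN1B was at -0.18 (-0.185 before rounding). GADD45B, at 13.3 ± 6.65 and 22.7 ± 6.96, had a log2 fold change of 0.79 (95% confidence interval -0.20 to 1.78), or 0.45 without NC replicate 1 (0.445 before rounding). None of the 3 was called, and GADD45G was under the filter. The interval lay within a 2-fold change for 1 of the 3 and reached beyond it for 2.

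**Figure D3:**
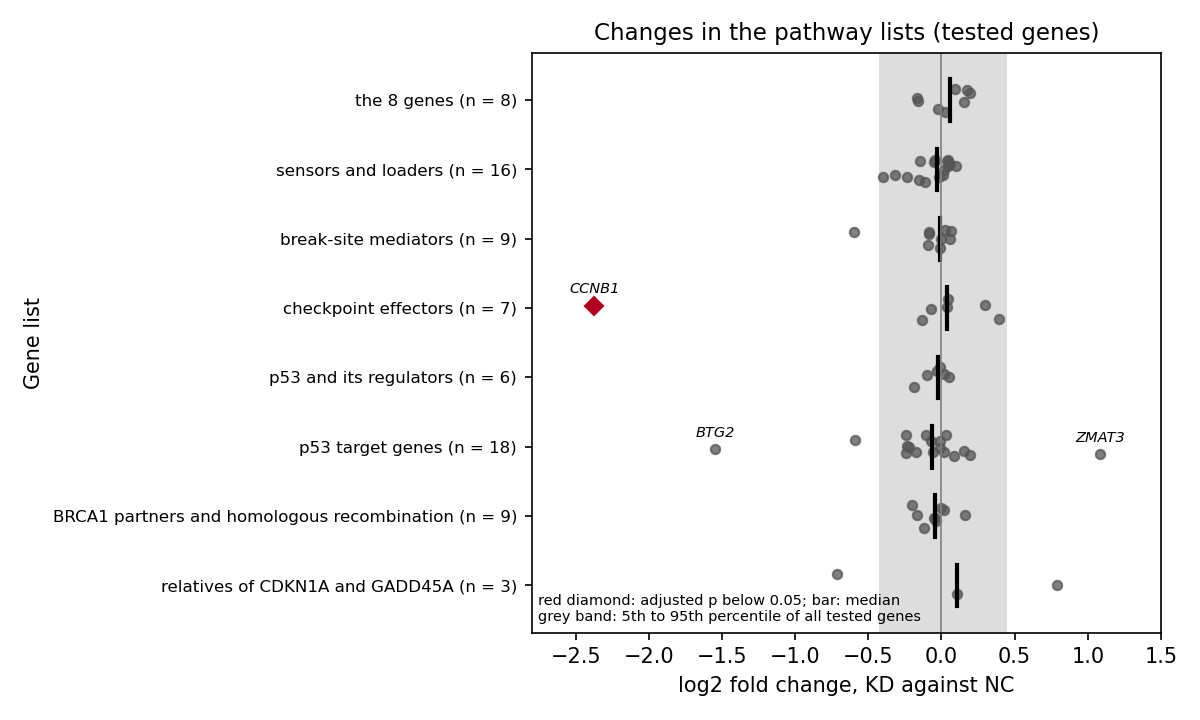
Log2 fold change in KD against NC of each tested gene in the 7 pathway lists and of the 8 checkpoint and p53 genes, with black bars for list medians, a red diamond for an adjusted p below 0.05, and a grey band from the 5th to the 95th percentile of all tested genes. CCNB1 is the gene marked as called, BTG2 and ZMAT3 lie farthest outside the band among the others, and the 8 checkpoint and p53 genes lie inside it.

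Markers were used to check what the libraries held. Of 12 oocyte and maternal genes 10 were found, and their summed level was 75063, 72552 and 67756 in NC and 82340, 79639 and 67031 in KD, with KPNA7 as the most abundant gene. Of 13 cumulus and granulosa genes 12 were found and 4 passed the filter. Their summed level was 992, 858 and 854 in NC and 942, 816 and 864 in KD, of which VCAN made up most. Without VCAN the sums were 67.2, 96.2 and 92.5 in NC and 86.3, 80.3 and 109 in KD. The mean was higher in KD for 5 of the 12 and lower for 7. Among the low ones, CYP19A1 was at 3.55, 0 and 1.94 in NC and at 9.27, 3.26 and 10.7 in KD, and FOXL2 at 1.05, 1.47 and 2.53 in NC and at 1.95, 2.90 and 13.1 in KD. PTX3 and PTGS2 were at 0 in all 3 KD libraries and at 0.762 to 3.12 in the NC libraries, and no marker was at 0 in all 6. Cumulus cells had been stripped from the oocytes with hyaluronidase before injection. The part of any remaining ones in the low values of CDKN1A, MDM2 and CHEK2 was not tested.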

How the data were processed

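The authors quantified transcripts with Salmon 0.14.1 against Sscrofa11.1 and compared the groups with DESeq2, per the submitters' processing notes and the methods of the study. They deposited a normalized signal per Ensembl gene, treated here as estimated read numbers divided by a size factor per library. Whether the values were scaled in other ways too was not tested, so the read numbers given here are approximate. The values were not whole reads (23.5 to 52.0% of low values lay within 0.02 of a multiple of a library's step), so no count test was run. Depth was estimated as the sum of the values divided by that step. Genes with a mean of at least 10 were tested on log2(value + 1) with limma 3.58.1 (R 4.3.3), a variance trend and Benjamini-Hochberg adjustment over 11986 genes. Fold changes are on that scale, which understates the change of low genes. An exact permutation test, two-sided, was added for single genes (scipy 1.17.1). Python 3.11.15, numpy 2.4.6, pandas 2.3.3 and matplotlib 3.10.9 were used. The fit was also run on simulated data, with noise set by the expression level alone. In the real data SIN3A and CCNB1 had within-group SDs of 0.739 and 0.472 on the log2 scale. The medians of genes at like level were 0.096 and 0.106, so the simulated run does not bear on those 2 calls. Names missing from the table were taken by identifier from a reference name table for 837 of 3575 unnamed genes. Positions and mRNA lengths come from RefSeq on Sscrofa11.1.

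The 8 genes and the lists were chosen with earlier results of these data known. Named genes are the 8 genes, SIN3A, CCNB1, in each list the called genes, the 2 with the highest mean and the 2 with the largest change, and the likest gene of each of the 8. Results were recomputed with a pseudocount of 0.1 or 10, without the filter or with a minimum mean of 100, with quantile normalization or TMM-like rescaling, without the variance trend, with the robust step, with the replicate number as a block, and with each library left out. Spike-in mRNAs were not used here, so a change in total mRNA per embryo was not assessed. Oocyte markers and cumulus markers were read from the same table.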

Additional observations from a re-analysis of the deposited data

How the results depend on the processing

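None of the 8 genes was called in any of the 15 alternatives that tested it; CHEK2, MDM2, CDKN1A and GADD45A were not tested at a mean of at least 100, where the relatives of CDKN1A and GADD45A had no value. The 19 calls over all genes became 0 without the variance trend (622 at an unadjusted p below 0.05) and 11 to 19 with a library left out, and the calls that also passed the fold threshold of 0.8 went from 15 to 0 without the trend. The call in the pathway lists went from 1 to 0 without the trend and with the robust step, where SIN3A stayed at -3.815 (adjusted p 0.423 and 0.469) and CCNB1 at -2.372 (0.423 and 0.439). The cause was not tested.

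With each library left out, SIN3A ranged from -4.20 to -3.22 and CCNB1 from -2.57 to -1.99 in log2 fold change. Signs turned in leave-one-out fits only, with ranges of -0.089 to 0.225 for ATR, -0.102 to 0.077 for CHEK1, -0.126 to 0.495 for MDM2, -0.003 to 0.277 for CDKN1A and -0.022 to 0.111 for BRCA1. In the lists they were -0.043 to 0.058 for CLSPN, -0.038 to 0.148 for PRKDC, -0.078 to 0.085 for XRCC6, -0.080 to 0.166 for CDC25B, -0.251 to 0.773 for WEE1, -0.024 to 0.102 for USP7, -0.079 to 0.112 for TP53INP1, -0.051 to 0.106 for PLK3, -0.140 to 0.117 for BRCA2, -0.130 to 0.246 for CDKN1C and -0.057 to 0.069 for TP63. The other 478 of 511 comparisons, over 35 genes, kept their sign and their side of the threshold.

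The replicate block gave 26 calls over all genes, which held the 19, and 0 among the 8 genes. Same-numbered libraries correlated at 0.109, 0.111 and 0.087 after subtraction of group means, each the highest of its library, a hint from the data and not the design. Low depth limits CHEK2, CDKN1A, MDM2 and BTG2 among others, at 70 or fewer estimated reads in each library.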
